A study of Mus musculus with 15 samples.

Results

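Type VI, VII, VIII, XII, XIV and XVI collagens do not build the thick striated fibrils of the lung. They form the beaded filaments, anchoring fibrils, networks and fibril coats around them. Their genes in the count table were Col6a1, Col6a2, Col6a3, Col7a1, Col8a1, Col8a2, Col12a1, Col14a1 and Col16a1, taken by symbol, 9 of the 33340 genes. RNA was sequenced from whole lungs of C57BL/6 mice after bleomycin, which breaks DNA and leads to lung fibrosis, given into the trachea at 5 U/kg. The methods describe male mice of 10 to 12 weeks for this model. The groups were day 0, the untreated control with 4 libraries, and days 7, 14 and 21 after bleomycin, with 4, 4 and 3 libraries by their titles, whereas the design text of the series speaks of 3 replicates for each day. The labels name no mock instillation, so effects of the drug and of its instillation cannot be told apart. Day 0 replicate 4 carried a bleomycin treatment label beside a control title and was kept in day 0 by its title.

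Collagen VI is assembled from the products of Col6a1, Col6a2 and Col6a3 inside the cell and is secreted as tetramers that join end to end into beaded filaments close to basement membranes. Collagen VII forms the anchoring fibrils that tie an epithelial basement membrane to the stroma below it. Collagen VIII, the product of Col8a1 and Col8a2, is a short-chain collagen that forms hexagonal networks and is known from the Descemet membrane of the eye and from remodelled vessel walls. Collagens XII and XIV lie on the surface of type I collagen fibrils and influence how the fibrils pack, and collagen XVI is a related fibril-associated collagen. Fibroblasts and smooth muscle cells make most of these collagens, and epithelial cells also make collagen VII.

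The libraries held 15652008 to 18020661 counted reads, and the lowest count of any of the 9 genes in a library was 110 reads, for Col8a1 at day 0. Lung epithelial markers were present in all libraries, and their summed level ranged from 48380 to 63530 CPM (the usual unit of read counts scaled to library size, here with TMM) at day 0, 24220 to 33320 at day 7, 12900 to 25270 at day 14, and 8943 to 13160 at day 21. Of the 5 epithelial markers, Scgb1a1 and Sftpc had the highest day 0 means, 27860 and 19370 CPM. At day 7, 1 of the 5 (Scgb1a1) was called lower, against 4 at day 14 and 3 at day 21. Ager passed on no day. Markers of cartilage, which expresses collagens of its own, summed to at most 2.13 CPM in any library. Mitochondrial genes took 2.28% and 2.31% of the counts in day 0 replicates 1 and 2, 4.22% and 4.04% in replicates 3 and 4, and 2.03% to 2.15% at day 7. The share was 2.1% in day 14 replicate 1 but 3.74% to 4.14% in the other day 14 libraries, and it lay between 2.66% and 4.01% at day 21. Day 14 replicate 1 had the highest value of its day for 9 of the 9 collagen genes, and without it the day 14 calls of the 9 genes against day 0 were the same, with log2 fold changes of 0.70 for Col6a1, 0.91 for Col6a2, 1.02 for Col6a3, 1.75 for Col7a1, 2.05 for Col8a1, -1.18 for Col8a2, 1.61 for Col12a1, 0.07 for Col14a1 and 0.92 for Col16a1.

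The promoters of 2 gene pairs are shown because Col6a1 and Col6a2, neighbours on chromosome 10, rose together, whereas Col8a1 and Col8a2 moved in opposite directions at day 14. RefSeq held a promoter for 7 of the 9 genes on GRCm38.p6. The 250 bases before the transcription start are printed 5′ to 3′ on the strand of the gene. Capitals mark matches on either strand to 4 motifs, and where matches overlap or touch the capitals run together. The first is TATAAA, the core element near which transcription can start. The second is CCAAT, which the trimeric factor NF-Y binds. The GC box of Sp factors is GGGCGG, and the element bound by Smad proteins, which act downstream of TGF-beta, is CAGAC.
Col6a1 promoter, chr10:76726045-76726294, minus strand: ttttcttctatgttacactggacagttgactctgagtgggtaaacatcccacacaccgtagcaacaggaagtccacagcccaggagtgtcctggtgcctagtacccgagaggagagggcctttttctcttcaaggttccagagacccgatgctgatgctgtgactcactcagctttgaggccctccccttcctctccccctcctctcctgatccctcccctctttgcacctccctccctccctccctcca
Col6a2 promoter, chr10:76623631-76623880, minus strand: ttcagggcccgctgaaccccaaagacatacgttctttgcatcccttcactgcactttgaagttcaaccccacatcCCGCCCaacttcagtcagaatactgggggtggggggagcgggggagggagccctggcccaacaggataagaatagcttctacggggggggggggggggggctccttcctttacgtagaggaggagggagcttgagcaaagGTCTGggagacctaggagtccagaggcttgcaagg
Col8a1 promoter, chr16:57754738-57754987, minus strand: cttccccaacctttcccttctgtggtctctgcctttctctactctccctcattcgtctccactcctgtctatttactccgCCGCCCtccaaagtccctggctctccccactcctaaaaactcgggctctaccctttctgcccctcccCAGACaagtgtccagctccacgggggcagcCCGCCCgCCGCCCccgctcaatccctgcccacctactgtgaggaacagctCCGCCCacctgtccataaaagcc
Col8a2 promoter, chr4:126286544-126286793, plus strand: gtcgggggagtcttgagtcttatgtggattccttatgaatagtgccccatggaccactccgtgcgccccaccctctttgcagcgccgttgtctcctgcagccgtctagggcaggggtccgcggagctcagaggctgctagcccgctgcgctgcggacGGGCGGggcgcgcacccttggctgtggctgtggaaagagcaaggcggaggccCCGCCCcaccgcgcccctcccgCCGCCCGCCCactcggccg
No match to any of the 4 motifs lay in the Col6a1 window. That window is set by the RefSeq start and overlaps the GENCODE gene, which begins at chr10:76726168 on the minus strand. The 250 bases before the GENCODE start were therefore not all searched. The Col6a2 window held 1 GGGCGG at position -175 and 1 CAGAC at -35, counted from the start site, both on the opposite strand. A window at another Col6a2 start held 3 GGGCGG. The Col8a1 and Col8a2 windows each held 4 GGGCGG, a number reached by 4.09% of the 32851 promoters of the mouse table, and the last pair of Col8a2 overlapped. The Col8a1 window also held 1 CAGAC at position -103. GC content was 60.8% for Col8a1 and 70.0% for Col8a2, against 56.0% for Col6a1, 59.2% for Col6a2 and a median of 52.4% over all promoters. Of the 8 member windows, 6 held GGGCGG, 4 held CAGAC and 2 held CCAAT, against 32.7%, 42.2% and 33.9% of all promoters. TATAAA was in 12.4% of all promoters and in none of the 8. A match describes the letters of these windows, and factor binding was not measured.

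The first question was which of these collagens rose or fell after bleomycin and when. With edgeR's quasi-likelihood fit (a Benjamini-Hochberg adjusted p under 0.05 over 17457 genes and a fold change over 1.5), 7 of the 9 genes had risen by day 7, where 8.78% of all genes were called higher. At day 14, 7 genes were higher, against 12% of all genes, and Col8a2 was lower, against 11.2%. At day 21, 7 genes were higher, against 12.4% of all genes. Col6a1, Col6a2, Col6a3, Col8a1, Col12a1 and Col16a1 were higher on each of the 3 days, Col7a1 from day 14 on, and Col14a1 at day 7. The median log2 fold change of the 9 genes was 1.11 at day 7, 1.21 at day 14 and 1.25 at day 21, and that of all genes was 0.01, 0.02 and 0.02. These comparisons share the day 0 libraries. In whole lung, fewer cells of a type and less RNA per cell cannot be told apart, nor more cells and more RNA.

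**Figure D1:**
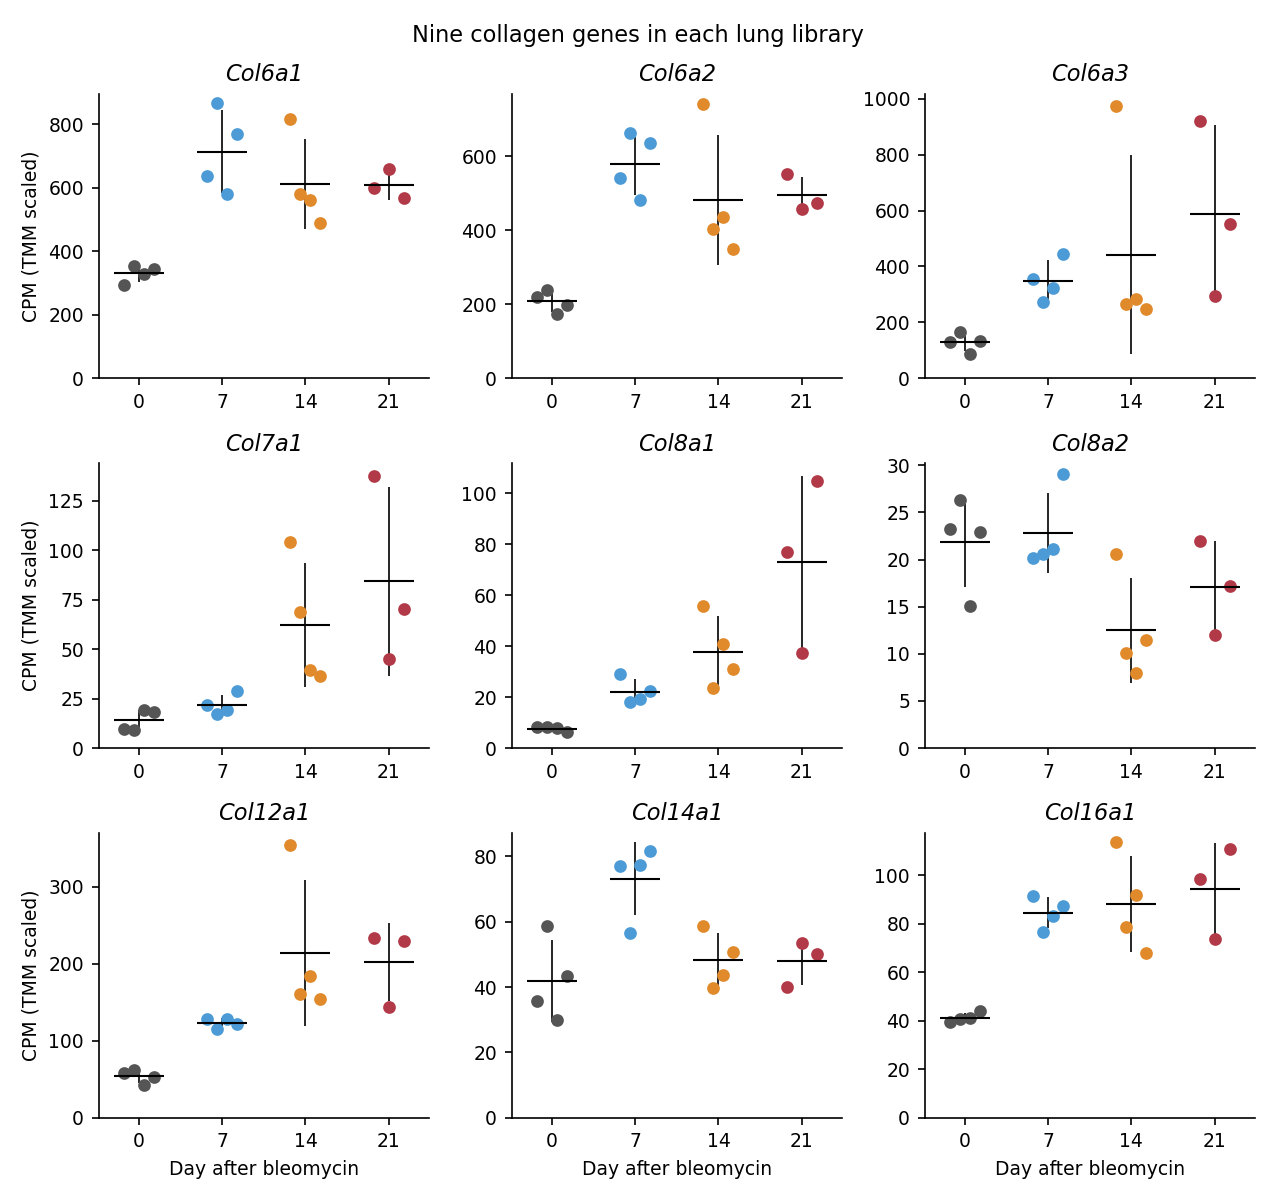
Level of each collagen gene in CPM (TMM scaled, axes from 0) in every library by day after bleomycin. Points are libraries, horizontal bars are means and vertical lines SD (n = 4, 4, 4 and 3). Col6a1 and Col6a2 are at their highest means at day 7, Col8a1 at day 21, and Col14a1 at day 7. Day 14 replicate 1 (leftmost point) is the highest of its day in every panel.

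Among the beaded filament genes, Col6a1 (ENSMUSG00000001119, chr10:76708792-76726168, minus strand, GRCm38) gives one of the pair of shorter chains. It stood at 295, 353, 330 and 344 CPM in the day 0 libraries and at 637, 869, 582 and 771 CPM at day 7. Its day 14 values were 817, 580, 563 and 489 CPM and its day 21 values 600, 660 and 567 CPM. Each of the 11 bleomycin libraries lay above each day 0 library. The log2 fold change against day 0 was 1.11 (SE 0.16, edgeR adjusted p = 0.000282) at day 7, 0.89 (SE 0.16, adjusted p = 0.000672) at day 14 and 0.88 (SE 0.17, adjusted p = 0.00131) at day 21. Against day 7 its log2 differences were -0.22 at day 14 (adjusted p = 0.404) and -0.23 at day 21 (adjusted p = 0.385), and neither passed the test.

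Col6a2 (ENSMUSG00000020241, chr10:76595762-76623630, minus strand), which lies beside Col6a1 and gives the other of that pair, also had its highest mean at day 7. It was at 221, 240, 175 and 198 CPM at day 0, at 542, 663, 482 and 635 CPM at day 7, at 742, 404, 436 and 351 CPM at day 14, and at 553, 459 and 473 CPM at day 21. Again no bleomycin library overlapped day 0. Its log2 fold change was 1.48 (SE 0.20, edgeR adjusted p = 0.000179) at day 7, 1.21 (SE 0.20, adjusted p = 0.000336) at day 14 and 1.25 (SE 0.21, adjusted p = 0.000495) at day 21.

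Col6a3 (ENSMUSG00000048126, chr1:90765923-90843971, minus strand) gives the longest of the 3 chains, whose carboxy end is cut off as the fragment endotrophin. It was at 131, 164, 87.8 and 132 CPM at day 0 and at 357, 273, 324 and 445 CPM at day 7. At day 14 it was at 974 CPM in replicate 1 and at 265, 285 and 246 CPM in replicates 2 to 4, and at day 21 at 921, 294 and 551 CPM. Each bleomycin library was above each day 0 library, but the libraries of days 14 and 21 differed among themselves more than those of day 7. Its log2 fold changes were 1.44 (SE 0.42, edgeR adjusted p = 0.0218) at day 7, 1.78 (SE 0.43, adjusted p = 0.00483) at day 14 and 2.20 (SE 0.45, adjusted p = 0.00199) at day 21. Without day 14 replicate 1 the day 14 value was 1.02 (adjusted p = 0.0162). The day 7 call was lost without day 0 replicate 3 (log2 fold change 1.28, adjusted p = 0.0689), day 0 replicate 4 (1.44, adjusted p = 0.0545) or day 7 replicate 4 (1.31, adjusted p = 0.0507), and after log2 mitochondrial share was added to the fit (0.93, adjusted p = 0.213).

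The 3 genes together reached 668 ± 68.7 CPM (SD, n = 4) at day 0, 1645 ± 221 (n = 4) at day 7, 1538 ± 669 (n = 4) at day 14 and 1693 ± 341 (n = 3) at day 21. Without correction for length, they made up 78.2% to 79.2% of the summed CPM of the 9 genes at day 0. The share was 79.9% to 85.6% at day 7, 75.5% to 78.2% at day 14 and 73.2% to 79.5% at day 21.

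Whether the partners within an assembly changed alike was tested on the log2 ratio of their CPM in each library, with exact two-sided permutation tests over 12 comparisons. With 4 libraries against 4 the smallest p such a test allows is 0.0286, and with 3 against 4 it is 0.0571. The Col6a2/Col6a1 ratio was -0.67 ± 0.22 on the log2 scale (SD, n = 4) at day 0 and -0.29 ± 0.07 at day 7, with no overlap between the libraries (difference 0.38, exact permutation p = 0.0286, adjusted p = 0.0857). The difference from day 0 was 0.29 at day 14 (exact permutation p = 0.114, adjusted p = 0.125), 0.37 at day 21 and 0.19 at day 7 within the libraries of low mitochondrial share. The Col6a3/Col6a1 ratio ranged from -1.91 to -1.10 at day 0, from -1.67 to -0.79 at day 7, from -1.13 to 0.25 at day 14 and from -1.17 to 0.62 at day 21. Its differences from day 0 were 0.36, 0.68 and 1.20, with exact permutation p of 0.257, 0.0571 and 0.114, and at day 21 replicate 1 was highest and replicate 2 lowest. No ratio passed an adjusted p of 0.05, which these numbers of libraries could hardly allow.

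**Figure D2:**
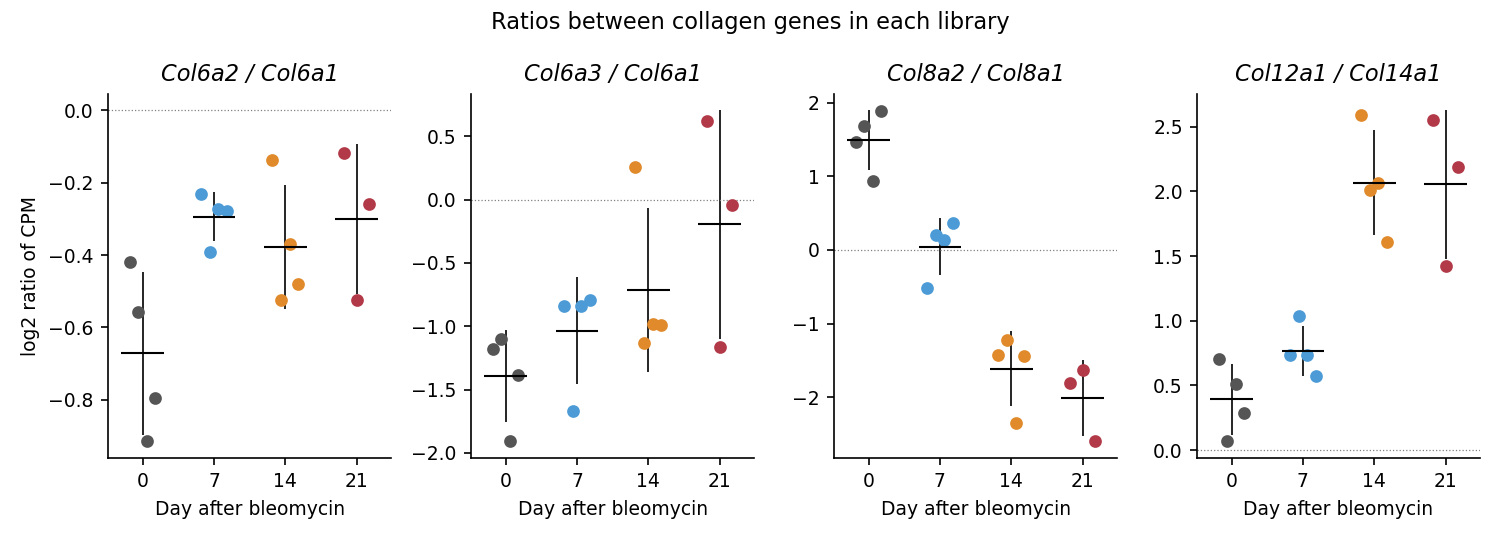
The log2 ratio of CPM (prior count 2) between pairs of collagen genes in every library by day after bleomycin, with points for libraries, horizontal bars for means and vertical lines for SD. The Col8a2/Col8a1 ratio falls from 0.94 to 1.88 at day 0 to below -1.2 in every library of days 14 and 21, and Col12a1/Col14a1 exceeds 1.4 in all of them against at most 0.70 at day 0. Day 14 replicate 1 and day 21 replicate 1 hold the highest Col6a3/Col6a1 ratios.

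Col7a1 (ENSMUSG00000025650, chr9:108953586-108984875, plus strand) alone encodes the anchoring fibril collagen, and it was called higher at days 14 and 21. It was at 9.70, 9.24, 19.3 and 18.1 CPM at day 0, with replicates 1 and 2, of low mitochondrial share, below replicates 3 and 4, of high share. Its values were 21.6, 17.3, 19.2 and 28.6 CPM at day 7, where 2 of 4 libraries lay above all day 0 libraries, and 104, 68.8, 39.6 and 36.7 CPM at day 14. At day 21 it was at 138, 44.9 and 70.6 CPM, and each library of days 14 and 21 lay above each of days 0 and 7.

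The log2 fold change of Col7a1 against day 0 was 0.62 (SE 0.38, edgeR adjusted p = 0.25) at day 7, 2.14 (SE 0.39, adjusted p = 0.000704) at day 14 and 2.58 (SE 0.41, adjusted p = 0.000300) at day 21. Within the libraries under 2.5% mitochondrial share, 4 of day 7 against 2 of day 0, the day 7 value was 1.18 and passed (adjusted p = 0.00683). Within those over 3.5%, 3 of day 14 against 2 of day 0, the day 14 value was 1.36 and still passed. Against day 7, the day 14 level was higher by 1.52 on the log2 scale (SE 0.38, adjusted p = 0.0272), and the day 21 level by 1.96 (SE 0.40, adjusted p = 0.00766). The day 14 call was lost on leaving out any of the day 7 libraries or day 14 replicate 1 or 2, with log2 values of 1.16 to 1.69 and adjusted p of 0.0523 to 0.0708, and with log2 mitochondrial share in the fit (1.45, adjusted p = 0.116).

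Col8a1 (ENSMUSG00000068196, chr16:57624258-57754737, minus strand), which gives the collagen VIII chain best known from vessel walls, had the largest log2 fold change of the 9 genes at day 21, under each alternative run. It was close to Col6a2 at day 7, and below it without day 7 replicate 1 (1.37 against 1.49), and close to Col7a1 at day 14. It was at 8.34, 8.10, 7.80 and 6.13 CPM at day 0 and at 29.0, 18, 19.3 and 22.6 CPM at day 7. Its later values were 55.7, 23.6, 41.0 and 31.2 CPM at day 14 and 76.9, 37.5 and 105 CPM at day 21. No bleomycin library overlapped day 0. Relative to day 0 the log2 change was 1.55 (SE 0.30, edgeR adjusted p = 0.00225) at day 7, 2.32 (SE 0.30, adjusted p = 5.16e-05) at day 14 and 3.27 (SE 0.32, adjusted p = 7.85e-06) at day 21, a 9.62-fold rise. The day 21 level was also above that of day 7, by 1.72 (SE 0.30, adjusted p = 0.00395). The differences of 0.77 (adjusted p = 0.107) between days 7 and 14 and of 0.95 (adjusted p = 0.338) between days 14 and 21 did not pass the test.

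Col8a2 (ENSMUSG00000056174, chr4:126286793-126314330, plus strand), the gene of the other collagen VIII chain, did not follow it. It was at 23.2, 26.3, 15.1 and 22.9 CPM at day 0 and at 20.2, 20.6, 21.1 and 29.1 CPM at day 7. At day 14 it was at 20.6 CPM in replicate 1 and at 10.1, 7.94 and 11.5 CPM in the others, 3 of 4 of them below all day 0 libraries, and at day 21 at 21.9, 12.01 and 17.2 CPM. On the log2 scale the change was 0.06 (SE 0.26, edgeR adjusted p = 0.896) at day 7, -0.81 (SE 0.27, adjusted p = 0.0306) at day 14 and -0.36 (SE 0.29, adjusted p = 0.375) at day 21. Without day 14 replicate 1 the fall was larger, at -1.18 (adjusted p = 0.00176). The call was lost on leaving out day 0 replicate 1, 2 or 4 or day 14 replicate 2, 3 or 4, with log2 values of -0.80 to -0.64 and adjusted p of 0.0546 to 0.0821, and in the fit of days 0 and 14 alone (-0.82, adjusted p = 0.0502).

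Of the 4 ratios tested, Col8a2/Col8a1 had the largest difference from day 0 on each day. On the log2 scale it was 1.49 ± 0.41 (SD, n = 4) at day 0, 0.04 ± 0.39 (n = 4) at day 7, -1.61 ± 0.50 (n = 4) at day 14 and -2.01 ± 0.51 (n = 3) at day 21. As linear ratios, with the prior count of 2 and no length correction, these ranged from 1.92 to 3.69 at day 0 and from 0.166 to 0.322 at day 21. The differences from day 0 were -1.45 at day 7 and -3.10 at day 14, each without overlap and at the smallest p an exact permutation test of 4 against 4 can give (p = 0.0286, adjusted p = 0.0857). The difference at day 21 was -3.50 (exact permutation p = 0.0571, adjusted p = 0.0857). Within the libraries of low mitochondrial share the day 7 difference was -1.53, and within those of high share the day 14 difference was -3.08.

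**Figure D3:**
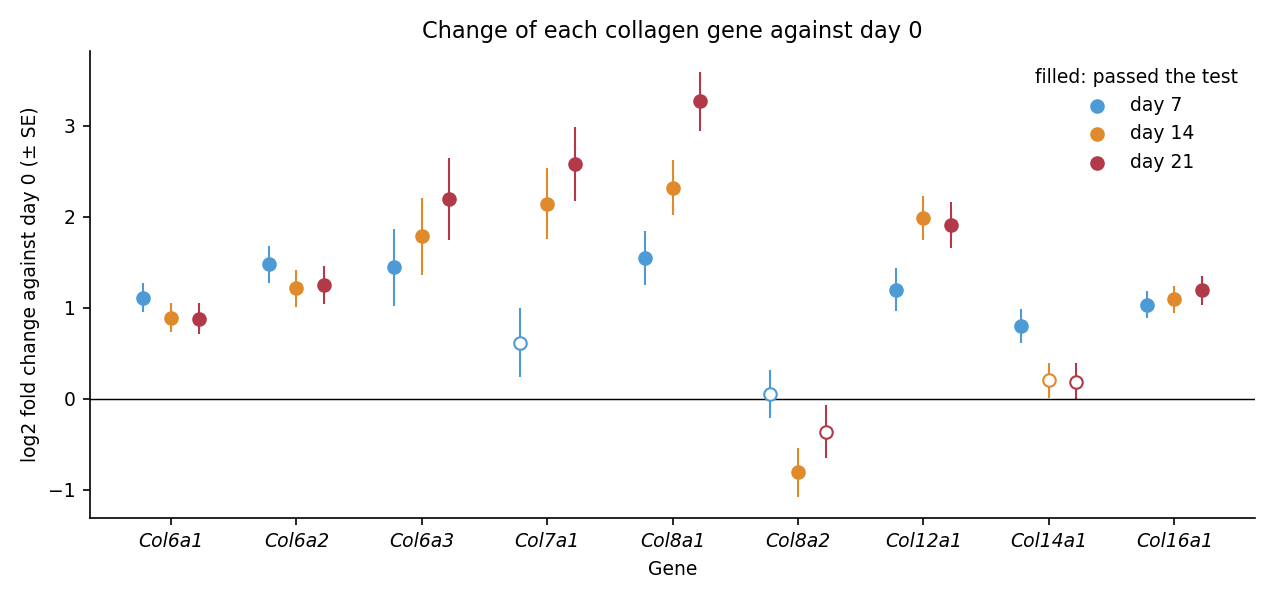
Log2 fold change of each collagen gene against day 0 at days 7, 14 and 21, with SE as vertical lines; filled points passed the test and open points did not. Col8a1 reaches 3.27 at day 21 while Col8a2 is at -0.81 at day 14, and Col14a1 passes at day 7 alone.

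Col12a1 (ENSMUSG00000032332, chr9:79598991-79718831, minus strand) codes for a large collagen that coats type I fibrils and binds tenascin-X and decorin. It was at 58.3, 61.6, 42.6 and 53.1 CPM at day 0, at 128, 116, 129 and 121 CPM at day 7, at 354, 161, 184 and 155 CPM at day 14, and at 234, 144 and 229 CPM at day 21. The day 7 libraries lay close together and above all day 0 libraries, and each later library lay above the day 7 ones. Against day 0 it rose by a log2 value of 1.20 (SE 0.23, edgeR adjusted p = 0.00237) at day 7, 1.99 (SE 0.24, adjusted p = 2.40e-05) at day 14 and 1.91 (SE 0.25, adjusted p = 6.61e-05) at day 21. Against day 7, the differences of 0.79 at day 14 (adjusted p = 0.0506) and 0.71 at day 21 (adjusted p = 0.0682) were just short of the threshold, although the groups did not overlap, and DESeq2 called both (adjusted p = 0.0137 and 0.0402).

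Col14a1 (ENSMUSG00000022371, chr15:55307750-55520803, plus strand), a close relative of Col12a1 that is known to limit fibril thickness, was called higher at day 7 but not at days 14 and 21. It was at 35.7, 58.7, 29.9 and 43.5 CPM at day 0 and at 77.2, 56.6, 77.3 and 81.6 CPM at day 7, where 3 of 4 libraries exceeded all of day 0. At day 14 it was at 58.8, 39.8, 43.8 and 50.8 CPM and at day 21 at 39.9, 53.5 and 50.1 CPM, within or at the edge of the day 0 range. Against day 0 the log2 value was 0.80 (SE 0.19, edgeR adjusted p = 0.00727) at day 7, 0.20 (SE 0.19, adjusted p = 0.440) at day 14 and 0.19 (SE 0.20, adjusted p = 0.522) at day 21. The day 7 call was lost with log2 mitochondrial share in the fit (0.56, adjusted p = 0.0962) and within the libraries of low share (0.61, adjusted p = 0.0714). Against day 7 the values of -0.60 at day 14 (adjusted p = 0.0659) and -0.61 at day 21 (adjusted p = 0.0611) did not pass, and DESeq2 called both (adjusted p = 0.0400 and 0.0404).

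Between the 2 relatives the log2 Col12a1/Col14a1 ratio was 0.39 ± 0.28 (SD, n = 4) at day 0, 0.77 ± 0.19 (n = 4) at day 7, 2.07 ± 0.40 (n = 4) at day 14 and 2.05 ± 0.57 (n = 3) at day 21. The difference from day 0 was 0.38 at day 7 (exact permutation p = 0.0571, adjusted p = 0.0857), with overlapping libraries. It was 1.68 at day 14 without overlap (exact permutation p = 0.0286, adjusted p = 0.0857) and 1.66 at day 21 (exact permutation p = 0.0571, adjusted p = 0.0857).

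Col16a1 (ENSMUSG00000040690, chr4:130047840-130099283, plus strand) had, relative to its mean, the smallest SD of the 9 genes at day 0, with values of 39.4, 40.7, 41.2 and 43.9 CPM. It was at 91.3, 76.5, 83.1 and 87.2 CPM at day 7, at 114, 78.5, 92.0 and 68.1 CPM at day 14, and at 98.3, 73.5 and 111 CPM at day 21, with no bleomycin library as low as day 0. Its rise was nearly the same size on each day, with log2 fold changes of 1.03 (SE 0.15, edgeR adjusted p = 0.000277), 1.09 (SE 0.15, adjusted p = 6.94e-05) and 1.19 (SE 0.16, adjusted p = 7.23e-05).

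Between the bleomycin groups few of these genes differed. Col7a1 was the 1 member called higher at day 14 than at day 7, where 2.77% of all genes were called higher. Col7a1 and Col8a1 were called higher at day 21 than at day 7, where 5.20% of all genes were. Between days 14 and 21 edgeR called 0% of all genes (DESeq2 106) and 0 of the 9, with a log2 range of -0.08 to 0.95, DESeq2 called 0 of the 9, and 1 (Col8a1) had an unadjusted p under 0.05, as did 1714 of the 17457 genes. Against day 7, where DESeq2 called 8.71% of all genes in either direction at day 14 and 12% at day 21, it called Col12a1 and Col14a1 at both later days, Col7a1 and Col8a2 at day 14, and Col7a1 and Col8a1 at day 21.

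Levels of different genes can be compared only per length, here as CPM per kilobase of the principal transcript of GENCODE M21. At day 0 the order was Col6a1 (80.6 ± 6.19, SD, n = 4), Col6a2 (52.8 ± 7.11), Col6a3 (14.3 ± 3.49), Col16a1 (7.93 ± 0.37), Col14a1 (7.39 ± 2.20), Col8a2 (5.05 ± 1.10), Col12a1 (4.68 ± 0.72), Col7a1 (1.52 ± 0.58) and Col8a1 (1.49 ± 0.20). The ranges of mean and SD overlapped between neighbours from Col16a1 to Col12a1 and between Col7a1 and Col8a1. At day 21 the type VI genes still led, at 149 ± 11.6 (SD, n = 3), 125 ± 12.7 and 65.4 ± 35.0, followed by Col16a1 (18.1 ± 3.65), Col12a1 (17.6 ± 4.41), Col8a1 (14.3 ± 6.61), Col7a1 (9.12 ± 5.18), Col14a1 (8.42 ± 1.25) and Col8a2 (3.94 ± 1.14). Col8a1 thus moved from the last place to the sixth and Col8a2 to the last. At day 21 neighbours overlapped from Col16a1 to Col14a1, and so did Col6a1 and Col6a2. The order was the same with the length of all annotated exons, except that Col7a1 and Col8a1 changed places at day 14.

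**Figure D4:**
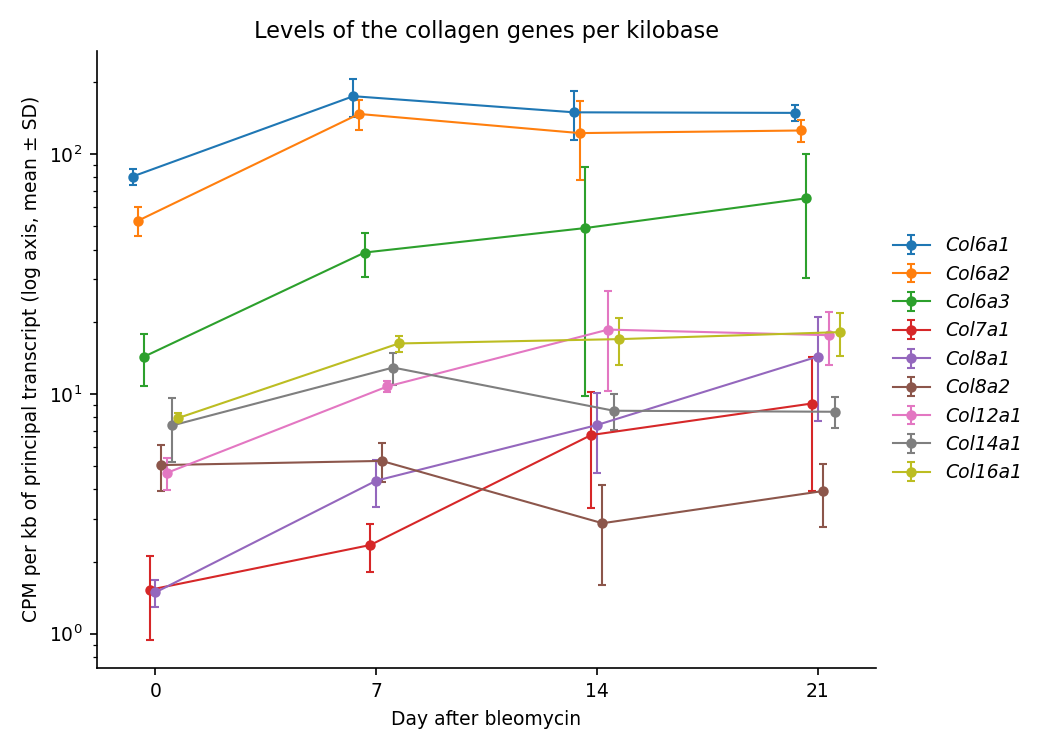
Mean level of each collagen gene in CPM per kilobase of its principal transcript (log axis) against day after bleomycin, with SD as vertical lines and lines joining the means; points are shifted sideways for clarity. The type VI genes stay on top on every day, and the Col8a1 line rises from 1.49 to 14.3 and crosses that of Col8a2.

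Some libraries stood apart in markers of other cells. Day 14 replicate 1 had a summed smooth muscle marker level (Myh11, Cnn1, Actg2, Des) of 465 CPM against 197 to 227 in the other day 14 libraries, and the lowest epithelial sum of its day (12900 CPM). Day 21 replicate 1, with the highest Col6a3 and Col7a1 of its day, had a smooth muscle sum of 485 CPM, replicate 3 had 344 and replicate 2 had 204. It also had a cardiac muscle marker sum of 722 CPM, against 17.7 and 24.2 in the other day 21 libraries, and that sum was 607 CPM in day 7 replicate 4 and 260 and 189 CPM in day 0 replicates 3 and 4. Over the day groups the smooth muscle sum ranged from 167 to 240 CPM at day 0 and 246 to 349 at day 7. It was 197 to 465 at day 14 and 204 to 485 at day 21. Of its 4 genes, Actg2 was called higher at days 14 and 21 (edgeR adjusted p = 0.0145 and 0.0299). Des was called at day 21 (adjusted p = 0.0232), and Myh11 and Cnn1 on no day. At day 21 the lowest Actg2 library (12.9 CPM) lay within the day 0 range of 10.6 to 17.6. The lowest Des library (98.8 CPM) lay within 71.2 to 99.7. Of the 5 adventitial fibroblast markers Mfap5 rose on each day, while Pi16 and Clec3b fell at days 14 and 21, and the sum ranged from 363 to 476 CPM at day 0, 393 to 530 at day 7, 284 to 392 at day 14 and 308 to 410 at day 21. The alveolar fibroblast sum was 3310 to 4048 CPM at day 0 and 1739 to 2453 at day 7. At day 7 Inmt alone of the 4 markers was called lower. The sum was 1135 to 1710 at day 14 and 1105 to 2025 at day 21, with 3 of 4 markers lower on these days. Mesothelial markers summed to 168 to 301 CPM at day 0, 103 to 452 at day 7, 382 to 908 at day 14 and 399 to 657 at day 21. Of these 4 markers Msln alone was called, higher at days 14 and 21, and Upk3b, Wt1 and Lrrn4 did not pass. Fat markers, from cells that also express collagen VI, summed to 19.8 to 68.6 CPM at day 0, 9.43 to 137 at day 7, 1.299 to 3.504 at day 14 and 0.740 to 3.03 at day 21. Of the 5 fat markers, Cidec was at 17.1 to 19.3 CPM in every day 0 library. The others varied more there, with Cfd at 0.582 to 30.4, Car3 at 0.647 to 17.2, Plin1 at 0.194 to 2.60 and Adipoq at 0.129 to 2.29. Endothelial markers summed to 1736 to 2170 CPM at day 0 and 1343 to 1692 at day 7. Their sum was 1042 to 1677 at day 14 and 1275 to 1576 at day 21. Of the 3 endothelial markers Pecam1 alone was called, lower at day 14. The part of all these cell types in the collagen values was not tested.

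The other minor collagens were not all raised with the 9 genes. Of 18 listed, 15 (all but Col9a1, Col9a2 and Col19a1) passed the filter on low counts. At day 7, 4 of them were higher and 1 lower, where 8.78% of all genes were called higher and 7.36% lower. At day 14, 5 were higher and 3 lower (12% and 11.2% of all genes), and at day 21, 6 were higher and 1 lower (12.4% and 10.1%). Their median log2 fold change was 0.27, -0.05 and 0.22. Col28a1, a small collagen related to type VI by its von Willebrand domains, rose from 2.66 CPM at day 0 to 15.4 at day 7, 21.0 at day 14 and 43.3 at day 21. Its log2 fold changes were 2.52 (SE 0.57, edgeR adjusted p = 0.00573), 2.98 (SE 0.58, adjusted p = 0.00117) and 4.02 (SE 0.61, adjusted p = 0.000209). Its day 7 value was 1.63 with log2 mitochondrial share in the fit, and its day 14 value was 1.88 without day 14 replicate 1. Col15a1 and Col18a1, the basement membrane collagens that carry restin and endostatin, rose on each day, to log2 fold changes of 3.29 (SE 0.37) and 1.56 (SE 0.18) at day 21.

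The higher genes also included Col22a1 on each day, Col10a1 at days 14 and 21 and Col6a4 at day 21, and the lower ones Col6a5 at day 14, all of them at a mean of 1.32 CPM or less in every group. Of the other 4 genes that fell, Col17a1, Col23a1 and Col13a1 encode collagens that span the cell membrane. Col17a1, a hemidesmosome protein that sits across the basement membrane from the anchoring fibrils, fell from 4.53 to 0.696 CPM at day 14 (log2 fold change -2.68, SE 0.55, edgeR adjusted p = 0.00180). Col23a1 fell at day 14 (-0.84, adjusted p = 0.0240), a call lost without day 0 replicate 4 or day 14 replicate 2, 3 or 4 (adjusted p of 0.0532 to 0.0660). Col13a1 fell at day 21 (-0.80, adjusted p = 0.0408), a call lost without day 0 replicate 1 or 4 or day 21 replicate 1 (adjusted p of 0.0671 to 0.134) and with the replicate block (-0.77, adjusted p = 0.0546). The fibril-associated Col9a3 was lower at day 7 (-1.18, adjusted p = 0.0187), and this was lost without day 0 replicate 3 or day 7 replicate 1 or 4 (adjusted p of 0.0506 to 0.0643), without the filter on low counts (adjusted p = 0.0608) and with log2 mitochondrial share in the fit (-0.82, adjusted p = 0.177).

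Of the 21 partners and receptors listed, all of which were tested, 4 were higher and 1 lower at day 7, where 8.78% of all genes were higher and 7.36% lower. At day 14, 8 were higher and 2 lower (12% and 11.2% of all genes), and at day 21, 9 were higher and 1 lower (12.4% and 10.1%). Their median log2 fold change was 0.37, 0.51 and 0.53. Antxr1, Antxr2, Dcn and Matn4 were among those called on no day against day 0. The log2 values at days 7, 14 and 21 were -0.04, -0.37 and -0.14 for Antxr1. For Antxr2 they were -0.08, -0.39 and -0.45, under the fold threshold. For the type VI filaments, biglycan (Bgn), which binds them and helps them assemble, rose from 998 CPM at day 0 to 1761 at day 7 (log2 fold change 0.82, SE 0.17, edgeR adjusted p = 0.00319) and was also called higher at days 14 and 21. The collagen VI receptor Cspg4, a proteoglycan of pericytes, rose to 1.23 (SE 0.30, adjusted p = 0.00543) at day 14 and 1.79 (SE 0.32, adjusted p = 0.000676) at day 21. Its day 14 value was 0.78 without day 14 replicate 1, and its day 7 call (0.85, adjusted p = 0.0478) was lost on leaving out any of the 8 libraries (adjusted p of 0.0640 to 0.103) and with log2 mitochondrial share in the fit (0.58, adjusted p = 0.331). Matn2, a matrilin that links collagen VI to other matrix, passed at day 21 with 1.67 (SE 0.41, adjusted p = 0.00670), but not without day 21 replicate 1 (1.07, adjusted p = 0.0723). At day 14 it also passed with 1.10 (adjusted p = 0.0403), a call lost without day 14 replicate 1 (0.54, adjusted p = 0.235), without day 14 replicate 2 or any day 0 library (adjusted p of 0.0675 to 0.0963), and in the fit of days 0 and 14 alone (adjusted p = 0.0556).

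Around the anchoring fibrils, Lamb3, which encodes a chain of the laminin that collagen VII binds, rose at day 7 already. It changed by 0.78, 1.22 and 0.96 on the log2 scale at days 7, 14 and 21, whereas Lama3, which encodes another chain, had values of 0.11, 0.30 and -0.03 that did not pass. On the fibril surface, Fmod, a small proteoglycan of collagen fibrils, rose to 2.33 (SE 0.31, adjusted p = 5.68e-05) at day 14 and 2.92 (SE 0.33, adjusted p = 1.82e-05) at day 21. Tnxb, whose product tenascin-X bridges collagens XII and XIV to fibrils, fell by 2.1 (SE 0.29, adjusted p = 8.95e-05) at day 14 and by 1.70 (SE 0.32, adjusted p = 0.00109) at day 21 on the log2 scale. Its day 7 value of -0.86 (adjusted p = 0.0370) was lost without day 0 replicate 3 or 4 or day 7 replicate 1, 2 or 4 (adjusted p of 0.0629 to 0.104), and with log2 mitochondrial share in the fit (-0.53, adjusted p = 0.312). Itga1, a collagen-binding integrin chain, was lower at day 14 (-0.95, SE 0.27, adjusted p = 0.0130).

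**Figure D5:**
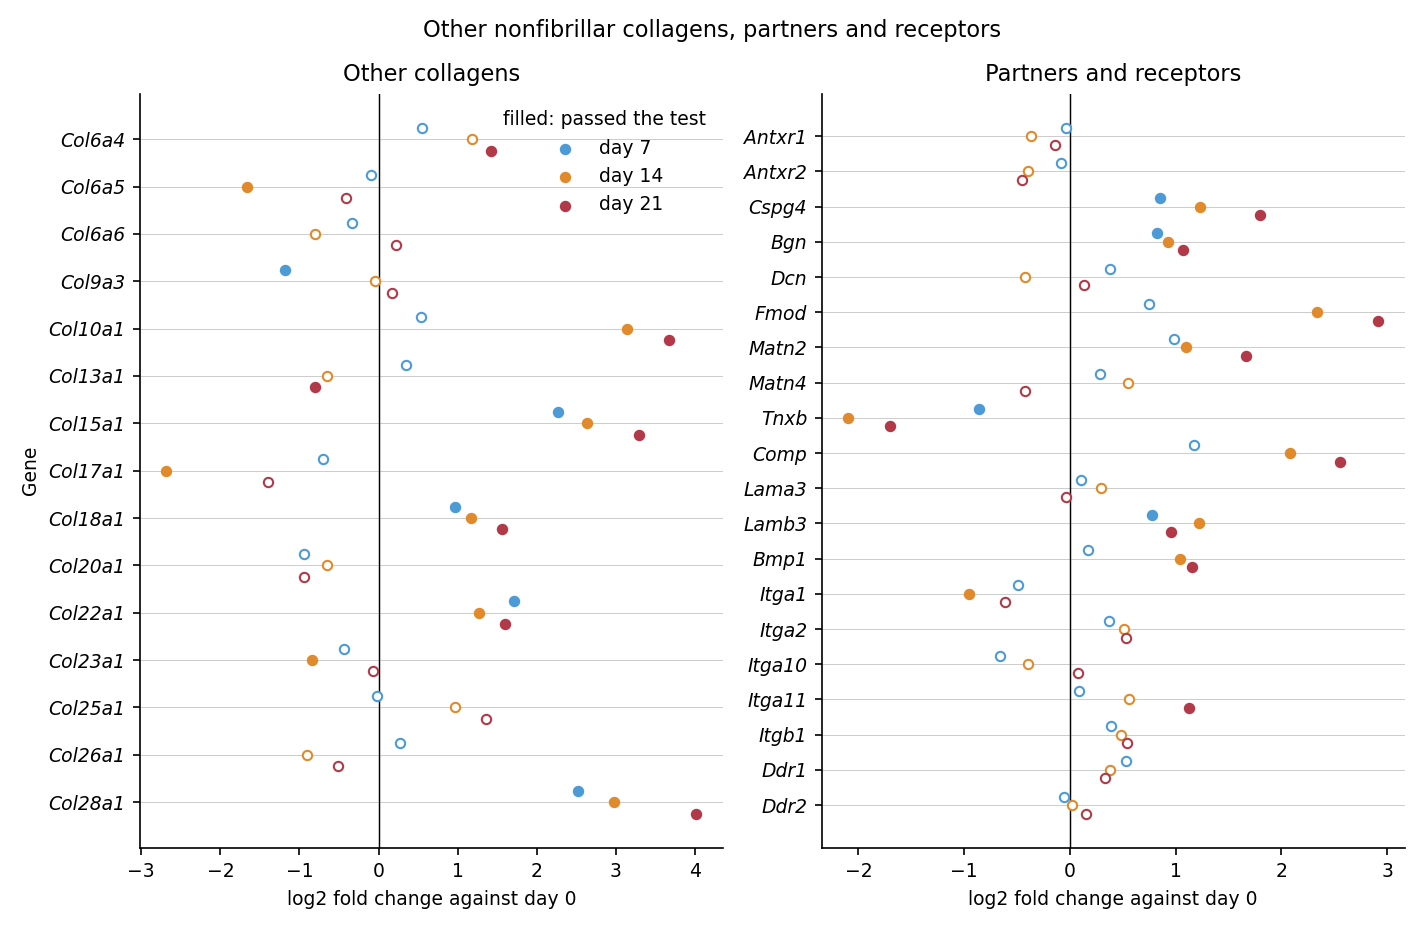
Log2 fold change against day 0 of the other minor collagens and of 20 of the 21 partners and receptors of the 9 genes at days 7, 14 and 21, with filled points where a gene passed the test. Col28a1 reaches 4.02 and Fmod 2.92 at day 21, while Col17a1 is at -2.68 and Tnxb at -2.1 at day 14.

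The genes whose pattern was most like each collagen were found from the root mean square difference, over the 15 libraries, of log2 CPM centred on day 0, among 11808 genes with a mean of at least 5 CPM. Closeness on this measure describes the values only. For Col6a1 they were the thiamine transporter Slc19a2 (0.17), Lrrc59 (0.17) and Gapdh (0.19), the latter a gene with many pseudogene copies that can take its reads. For Col6a2 they were Loxl1 (0.20), an enzyme of elastin crosslinking, the elastic fibre glycoprotein Emilin1 (0.22) and the carbonic anhydrase Car13 (0.22). For Col6a3 they were Cd248 (0.23), which codes for endosialin of stromal cells and pericytes, the protease inhibitor Serpine2 (0.27) and the adhesion molecule Clmp (0.31). Col6a3 was more like Col12a1 (0.38) than like any other of the 9 genes, and Col6a1 was nearest to Col16a1 (0.28).

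For Col7a1 the nearest were Rnf152 (0.42), C1qtnf6 (0.43) and Scamp5 (0.43). For Col8a1 they were Mark1 (0.38), Aoah (0.43) and the elastic fibre protein Ltbp2 (0.45). For Col8a2 they were Traf3ip1 (0.18), a component of ciliary transport, Oscp1 (0.19) and Agr3 (0.20), a protein of ciliated cells, and no other of the 9 genes was nearer than Col14a1 (0.81). Foxj1, the ciliated cell factor among the epithelial markers, fell from a mean of 93.5 CPM at day 0 to 50.2 CPM at day 14, and its log2 fold changes were 0.37 (day 7), -0.90 (day 14) and -0.49 (day 21). Of these the day 14 value passed (edgeR adjusted p = 0.0322), a call lost without day 0 replicate 2 or 4 or day 14 replicate 2, 3 or 4 (adjusted p of 0.0531 to 0.0878). The part of ciliated cells in the Col8a2 values was not tested. Col12a1 was most like Rnf128 (0.21), Cd276 (0.24) and Rab3il1 (0.24). Among those most like Col14a1 were the kinase Frk (0.23) and Zfp41 (0.24). For Col16a1 the nearest were the lysosomal enzyme Gusb (0.15), Cercam (0.18) and the microfibril protein Mfap5 (0.18).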

How the data were processed

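Polyadenylated RNA of whole lung was sequenced in 15 libraries. The authors trimmed the reads, aligned them to mm10 (GRCm38) with HISAT2 2.1.0, excluded multi-mapped reads, counted with HTSeq 0.6.0 and deposited the raw counts of Ensembl genes, without normalization. The strand setting and annotation of the counting were not given in the sources used here, and none of the 9 genes shared exon sequence with another gene of the table. Symbols, coordinates and lengths came from GENCODE M21 on the same build, which matched 33267 of 33340 gene identifiers, and promoters from RefSeq (GRCm38.p6).

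Day and replicate were taken from the sample titles. Counts were tested with edgeR 4.0.16 in R 4.3.3 (filterByExpr, TMM, glmQLFTest, day group as the only term, all libraries in 1 fit, common biological coefficient of variation 22.8%), and the script was tested on simulated data. Calls needed a fold change over 1.5 and, over 17457 genes, a Benjamini-Hochberg adjusted p under 0.05. Ratios were tested in scipy 1.17.1 on log2 CPM with a prior count of 2. Libraries of a group differed by more than sampling noise (chi-square per degree of freedom of at least 10.1). The study's text calls the lung libraries biological replicates, but the labels do not tie them to animals. The tests judge a difference between days against the spread between libraries.

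The 9 genes, the gene lists and the tests were chosen with earlier results of these data known. All 9 genes are named in each comparison. Of each list, up to 4 genes changed in each direction with the largest log2 fold change and a mean of at least 1 CPM are named at each day, with the 3 most like genes of each member. Lama3, Antxr1, Antxr2, Dcn, Matn4, some single cell type markers (Foxj1 among them) and the other collagens under that mean were named after their values were seen. 1 partner gene, which is in the list's counts, and 1 gene most like Col14a1 are not reported here. Every sample column was used. Alternatives were DESeq2 1.42.0, total count scaling, no filter, the 2 groups alone, replicate number as a block, log2 mitochondrial share as a covariate, sets of libraries under 2.5% or over 3.5% of that share, a prior count of 0.5, and each library left out.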

Additional observations from a re-analysis of the deposited data

Results flagged for a closer look

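In 27 groups of 4 libraries (9 genes on days 0, 7 and 14), the highest or lowest library was set against the others, and chance alone flags about 5% of such groups. In 3 groups a library stood apart. For Col6a3 this was day 14 replicate 1, with 974 CPM where the other libraries of that day had 246 to 285. For Col12a1 it was the same library, with 354 CPM where the others had 155 to 184. That library also had a mitochondrial share of 2.1%, against 3.74% to 4.14%, and a smooth muscle marker sum of 465 CPM, against 197 to 227 CPM. For Col8a2 it was day 7 replicate 4, with 29.1 CPM where the others had 20.2 to 21.1, and that library had a cardiac muscle marker sum of 607 CPM, against 30.1 to 58.0 CPM in the others of day 7, and an adipocyte marker sum of 137 CPM, against 9.43 to 29.0 CPM. The part of these in the collagen values was not tested.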

How the results depend on the processing

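Against day 0 the count of the 9 genes called stayed at 6 to 8 whichever library was left out, and was 5 for day 7 once log2 mitochondrial share (the covariate) was in the fit. The counts between later days were less stable. At day 14 against day 7 it was 1, but 4 with DESeq2, 4 without the filter on low counts, 2 with the 2 groups alone, 3 with a replicate block, and 0 to 2 with a library left out. At day 21 against day 7 it was 2, but 4 with DESeq2, 4 without the filter and 4 with the 2 groups alone. With that covariate 3 other collagens and 3 partners and receptors changed at day 7 in place of 5 each, and the latter count was 3 to 4 with a library left out, at 3 without day 0 replicate 3 or 4 or day 7 replicate 1, 2 or 4. The log2 Col6a2/Col6a1 difference at day 7 was 0.19 in place of 0.38 within the libraries of low share, and the other 111 alternative values of the ratios moved by less than 1 SD. Signs turned in values that had not passed the test. Col8a2 at day 7 was -0.29 with the covariate, -0.14 within the libraries of low share, -0.11 without day 0 replicate 3 and -0.08 without day 7 replicate 4 (range -0.11 to 0.13 with a library left out), and 0.018 at day 21 against day 7 with the covariate. Col6a3 at day 14 against day 7 was -0.40 without day 14 replicate 1 (range -0.40 to 0.54). Over all genes, 1269 in place of 2818 were called at day 7 against day 0 with the covariate. At day 14 against day 7 the number was 1048 (6.00% of genes), but 1641 (8.71%) with DESeq2, 1283 (3.90%) without the filter, 959 (5.92%) with the 2 groups alone, 1184 (6.78%) with the replicate block, 218 with the covariate and 340 to 1300 with a library left out. At day 21 against day 7 it was 1665 (9.54%), but 2260 (12%) with DESeq2, 1851 (5.63%) without the filter, 1638 (9.87%) with the 2 groups alone, 942 with the covariate and 966 to 1822 with a library left out. Between days 14 and 21 it was 0, but 106 with DESeq2, 37 without the filter and up to 127 with a library left out. The causes were not tested. The deviations of same-numbered libraries of different days correlated at -0.244 to 0.397, and those of unlike-numbered ones at -0.326 to 0.258. What else same-numbered libraries share was not tested. With the replicate block 7, 8 and 7 of the 9 genes were called against day 0. Counting error is small at these depths, and the number of libraries limits the precision.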
